A study of Mus musculus with 2 samples.

Results

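The replication-dependent histone genes of the mouse encode the H1 linker histones and the core histones H2A, H2B, H3 and H4. They were taken as every protein-coding gene with a symbol that starts with Hist1h, Hist2h, Hist3h or Hist4h in the GENCODE M21 annotation, matched by Ensembl identifier. The annotation holds 67 such genes, of which 64 have an entry in the deposited gene tables, among 43346 Ensembl genes and 21461 nuclear protein-coding genes there. Hist1h2bh, Hist1h2bm and Hist2h2bb were not analysed here. The 64 genes comprise 6 of class H1, 18 of H2A, 15 of H2B, 12 of H3 and 13 of H4.

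Total RNA was sequenced from colony-forming erythroid progenitor cells (CFU-Ery), primary cells of male adult C57BL/6J mice aged 5 to 6 weeks. The study holds 1 group of 2 libraries, replicate 1 and replicate 2, each made from 1 ng of RNA with added spike-in RNA and a size range given as 150 to 400. The libraries carry separate biosample records and the same donor record, and nothing in the labels says whether they came from separate animals, so the spread between them may be technical. There is no second condition, and no test was made: values are given per library, and SD is the spread over 2 libraries.

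Replication-dependent histone genes supply the histones that package new DNA in S phase, and their transcripts accumulate in dividing cells such as erythroid progenitors. Their mRNAs are the known class of metazoan mRNA that ends in a conserved stem-loop instead of a poly(A) tail, so they are captured by total RNA libraries and largely lost in poly(A)-selected ones. The genes lie in clusters, in many near-identical copies, and H2A and H2B genes often share a promoter region from which they are transcribed in opposite directions.

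The stem-loop is shown first because it is the feature that defines the class, and because its place in a transcript bears on the levels given later. It was found after the stop codon in 44 of the 64 genes, in 8 distinct sequences, starting 21 to 58 bases after the stop codon with a median of 31.5 bases. The 3 commonest forms and the form with the rarest stem are printed 5′ to 3′ from GENCODE M21 transcripts, with the 6 bases on each side that pair as a stem in capitals and the 4-base loop in lower case.
24 genes of H1, H2A, H2B and H3: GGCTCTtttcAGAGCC
7 genes of H4: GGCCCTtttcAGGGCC
6 genes of H1, H2B and H3: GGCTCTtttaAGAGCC
2 genes of H4: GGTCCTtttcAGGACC
The stem separated the classes. The 32 genes outside H4 with a stem-loop all had the stem of the first line, while the 12 H4 genes had either the stem of the second line, in 10 genes, or the stem of the last line, in 2 genes. The loop varied within both sets. The motif was present anywhere in a transcript of 0.103% of 21351 other nuclear protein-coding genes. Of the 20 histone genes in which it was not found, 15 have annotated transcripts that end less than 40 bases after the stop codon. That is too short a stretch to hold it at the median distance, and 12 of them end at the stop codon itself. The other 5, Hist1h1a, Hist1h2bc, Hist1h2bq, Hist1h2br and Hist2h2be, have from 48 to 2192 bases after it. Whether these hold a form that the search pattern missed was not tested.

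As a group the histone genes were abundant for their number. They held 4.13% and 4.40% of the TPM (a level per transcript length, scaled to the same total in each library) of nuclear protein-coding genes in replicates 1 and 2, or 4.27% ± 0.185 (SD, n = 2). In expected counts, which are not per length, their share was 1.21% and 1.36%. At least 1 TPM in both libraries was reached by 47 of the 64 genes, against 12.6% of all nuclear protein-coding genes. The threshold is strict here: mitochondrial rRNA took 76.8% and 74.7% of all TPM. When the total was taken over nuclear protein-coding genes instead, 56 of the 64 genes passed, against 44.6% of all. By mean TPM, 2 histone genes were at 100 or more, 18 at 20 or more, 39 at 5 or more and 51 at 1 or more. Ranked by mean TPM among nuclear protein-coding genes, 15 histone genes were in the top 100 and 35 in the top 500. The 10 highest histone genes held 56.2% and 59.4% of the summed histone TPM. In bulk libraries, fewer cells of a type and less RNA per cell cannot be told apart.

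The expected counts, the authors' estimates of reads per gene, summed to 143491647 in replicate 1 and 110634458 in replicate 2. Nuclear protein-coding genes had 4717790 and 4093202 of these counts, and the histone genes 57008 and 55578. All 9 erythroid markers were at 1 TPM or more in both libraries, with summed TPM of 3677 and 4290, led by the globin genes. Markers of granulocytes and monocytes were also present, 10 of 10 at 1 TPM or more, with summed TPM of 552 and 750. Macrophage markers passed in 4 of 5, B lymphoid markers in 3 of 5, megakaryocyte markers in 0 of 4 and stem cell markers in 0 of 4. Of all nuclear protein-coding genes, 12.6% passed. With the total taken over nuclear protein-coding genes, every marker of these 4 lists was above 1 in both libraries, against 44.6% of all. The lowest was Flt3, a stem cell marker, at 2.16 and 1.48. A count of 0 at 1 TPM thus does not show that such cells were absent. What part of the histone levels came from other cells was not tested.

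**Figure D1:**
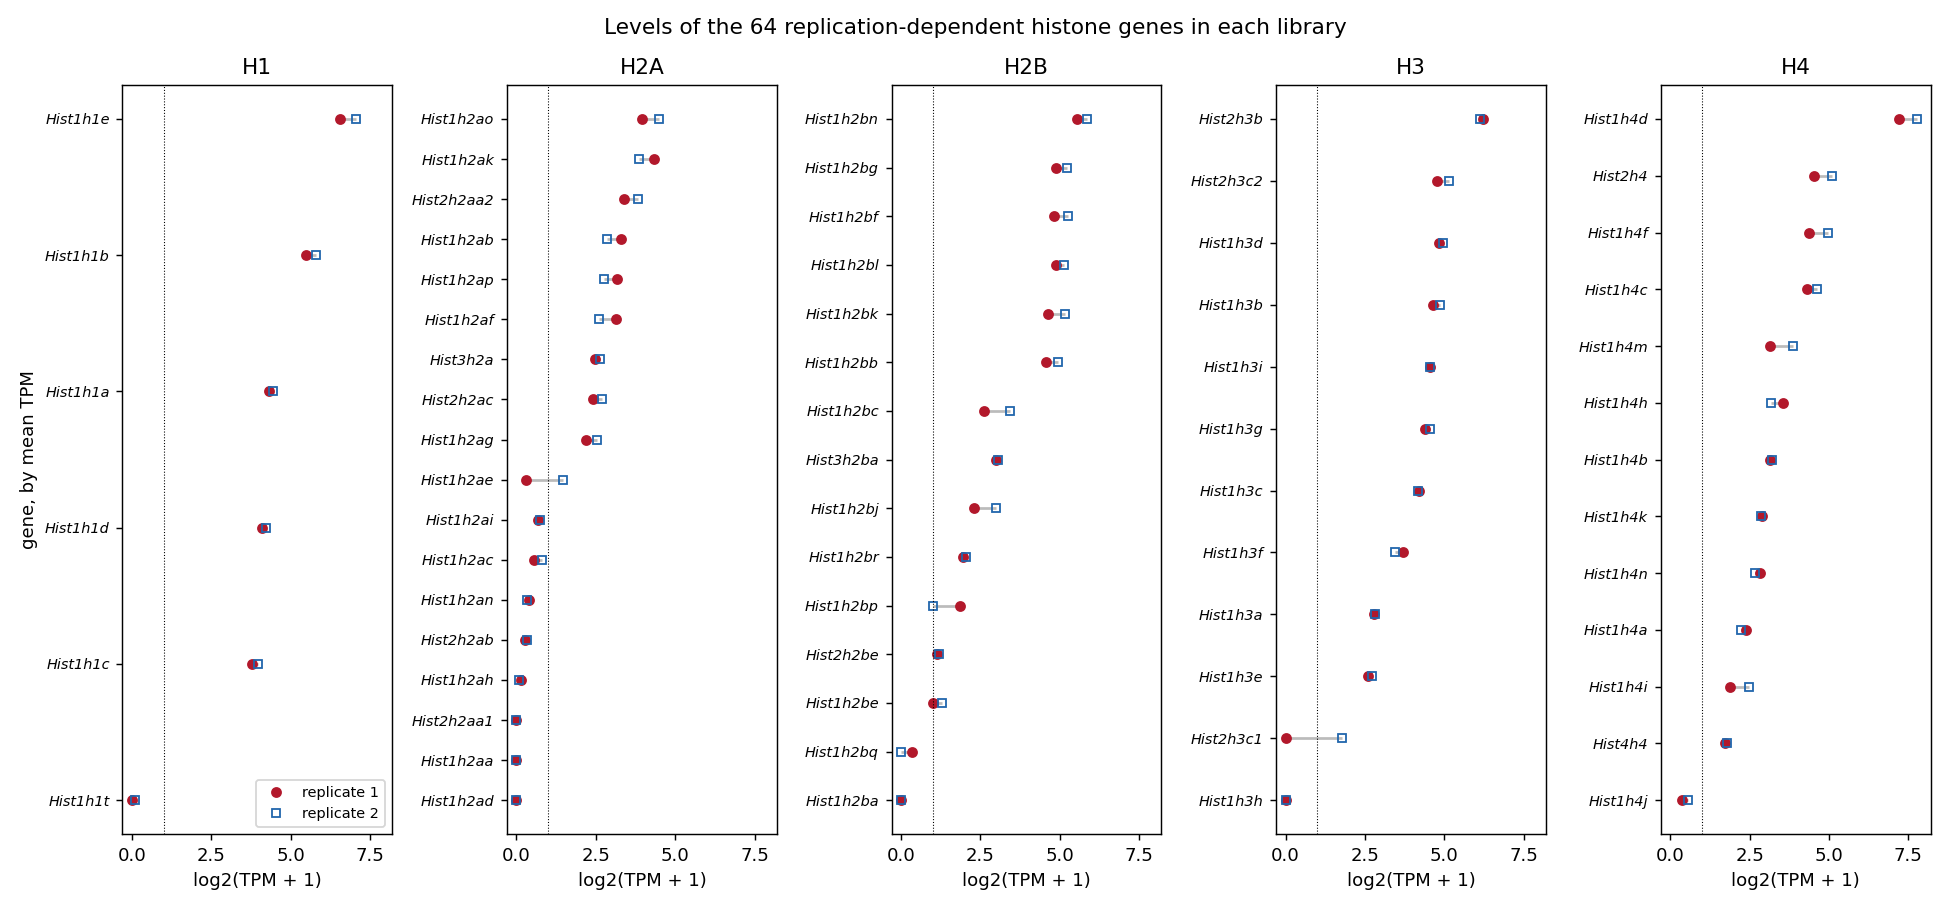
Level of each of the 64 histone genes as log2(TPM + 1), in 1 panel per class, with genes ordered by mean TPM. Filled circles are replicate 1, open squares replicate 2, and the dotted line is 1 TPM. Levels in each class reach down to under 1 TPM, and 1 gene stands well above the rest in H1, H3 and H4. Hist2h3c1 and Hist1h2ae show the widest gaps between the libraries.

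H4 had the highest summed level, although it is encoded by fewer genes than H2A or H2B. Summed over its 13 genes, H4 was at 257 TPM in replicate 1 and 357 TPM in replicate 2. H4 binds H3 to form the tetramer at the centre of the nucleosome. All 13 H4 genes encode the same protein, so the summed level is the level of a single product. Hist1h4d (chr13:23581598-23582735, plus strand, GRCm38) alone was at 148 and 217 TPM (182 ± 48.6, SD, n = 2) and ranked 7 among nuclear protein-coding genes. In deposited TPM it was the highest histone gene in both libraries, and its range did not overlap that of the next gene, Hist1h1e. In expected counts Hist1h1e was higher, with 7580 and 8280 counts, against 5033 and 5685 counts for Hist1h4d. With the length taken to the stem-loop, an alternative added after seeing the data and described later, the next gene was Hist2h4 at 137 and 207 TPM, a range that overlaps that of Hist1h4d. The deposited model of Hist1h4d is 393 bases long, against 1138 bases in M21, and its TPM rests on the deposited length.

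As deposited, the next H4 genes were much lower than Hist1h4d and overlapped each other. Hist2h4 (chr3:96261682-96263311, minus strand) was at 22.1 and 33.1 TPM. Hist1h4f was at 19.8 and 30.3 TPM, and Hist1h4c at 18.9 and 23.8 TPM. The ranges of these 3 genes overlapped. The others ran down to under 1 TPM. The remaining 9 H4 genes lay between Hist1h4m, at 7.88 and 13.5 TPM, and Hist1h4j, at 0.29 and 0.49 TPM. Between them were Hist1h4h (10.7 and 8.11 TPM), Hist1h4b (7.78 and 8.24 TPM), Hist1h4k (6.38 and 6.25 TPM), Hist1h4n (6.13 and 5.31 TPM), Hist1h4a (4.22 and 3.73 TPM) and Hist1h4i (2.66 and 4.63 TPM). Hist1h4j was the only H4 gene under 1 TPM in both libraries. Hist4h4 (chr6:136801553-136804415, minus strand), the single gene of the Hist4 cluster, was at 2.30 and 2.48 TPM.

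Although their protein is the same, the H4 genes differ in their bases. Over the 309 coding bases, identity to Hist1h4d ran from 87.1% in Hist4h4 to 94.2% in Hist1h4j. The first 60 coding bases are printed for Hist1h4d and for 4 H4 genes, the next 3 by level and the sole member of the Hist4 cluster, to show how synonymous bases separate them. Capitals mark the 19 positions at which these 5 sequences are not all the same.
Hist1h4d: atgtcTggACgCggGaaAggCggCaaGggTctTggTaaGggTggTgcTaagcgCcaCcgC
Hist2h4: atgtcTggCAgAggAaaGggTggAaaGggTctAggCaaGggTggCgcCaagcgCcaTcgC
Hist1h4f: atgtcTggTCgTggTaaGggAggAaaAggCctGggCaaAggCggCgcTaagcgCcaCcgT
Hist1h4c: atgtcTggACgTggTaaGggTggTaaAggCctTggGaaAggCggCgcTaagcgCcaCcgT
Hist4h4: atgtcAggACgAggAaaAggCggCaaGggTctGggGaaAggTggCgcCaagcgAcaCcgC
Of these 19 positions, 18 are the last base of a codon. The deposited tables give a posterior SD of each count, the uncertainty left after reads that match several genes are divided. For Hist1h4d it was 0.0852% and 0.0619% of the posterior mean count in replicates 1 and 2, and for Hist2h4 and Hist4h4 it was 0 in both. Among H4 genes it was over 10% in both libraries in Hist1h4k, Hist1h4n and Hist1h4j, with 13.7% and 16.5% in Hist1h4k, whose model covers coding bases only. The division of shared reads thus left little uncertainty in the count of Hist1h4d.

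H3 was summed at 234 and 246 TPM in replicates 1 and 2. The 12 genes encode only 2 proteins, known as H3.1 and H3.2. The 8 genes for H3.2 were at 186 and 195 TPM, which is 79.4% and 79.2% of H3. The 4 genes for H3.1, Hist1h3a, Hist1h3g, Hist1h3h and Hist1h3i, were at 48.4 and 51.1 TPM. The split between the proteins was thus nearly identical in the libraries. The highest H3 gene was Hist2h3b (chr3:96268654-96269141, plus strand), at 74.1 and 68.0 TPM. Next came Hist2h3c2 at 26.1 and 34.2 TPM and Hist1h3d at 27.2 and 29.7 TPM, with overlapping ranges. Hist2h3b ranked 19 among nuclear protein-coding genes and, unlike most histone genes, was slightly higher in replicate 1. The H3 genes of Hist1 below Hist1h3d formed a graded series. Hist1h3b was at 24.2 and 27.9 TPM, Hist1h3i at 22.5 in both, Hist1h3g at 20.0 and 22.5 TPM and Hist1h3c at 17.3 and 17.1 TPM. Hist1h3f was at 12 and 9.80 TPM, above Hist1h3a (5.92 and 6.06 TPM) and Hist1h3e (4.98 and 5.55 TPM). An annotated antisense transcript, Gm20628, covers the whole of Hist2h3b and was at 3.79 and 6.03 TPM; whether the counting used strand is not given in the sources used here, so reads of the pair cannot be told apart.

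The lowest H3 genes had the least certain counts. Hist1h3h had 0 expected counts in both, and 95.6% of the 25-base words (25-mers) of its transcript also occur in other histone genes. Its posterior mean counts were 27.1 and 13.4, so the estimate left room for some reads from it. Hist2h3c1 had 0.02 counts in replicate 1 and 416 counts in replicate 2, or 0 and 2.40 TPM. Its posterior SD was 59.2% and 50.02% of the posterior mean count. Its 1820-base model lies wholly within exons of the non-coding gene Gm20634, with 677 and 33.8 counts, the reverse of Hist2h3c1. Summed, the pair was at 3.02 and 2.52 TPM, so the difference seen in Hist2h3c1 alone was not present in the sum.

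H2A had the most genes and the lowest sum, 81.8 and 84.6 TPM. H2A and H2B form the dimers that flank the tetramer of H3 and H4. Only 9 of the 18 H2A genes were at 1 TPM or more in both libraries. The highest were Hist1h2ao at 14.4 and 21.5 TPM, Hist1h2ak at 19.2 and 13.7 TPM, and Hist2h2aa2 at 9.36 and 13.2 TPM, and their order changed between the libraries. In the middle lay Hist1h2ab (8.81 and 6.24 TPM), Hist1h2ap (7.92 and 5.83 TPM), Hist1h2af (7.87 and 5.10 TPM) and Hist1h2ag (3.56 and 4.76 TPM), besides the genes of other clusters given later. At the low end, Hist1h2ai, Hist1h2ac, Hist1h2an, Hist2h2ab and Hist1h2ah had means of 0.085 to 0.635 TPM. Hist1h2ad, Hist1h2aa and Hist2h2aa1 had 0 counts in both.

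H2A genes also share much of their sequence. Of the 18 genes, 9 encode 1 identical protein, and together these 9 held 44.3% and 49.4% of H2A TPM. Hist1h2ao shares 93.9% of its 25-mers with Hist1h2ap, and its posterior SD was still only 6.65% and 4.53%. All 25-mers of Hist2h2aa2 also occur in Hist2h2aa1, whose model begins further upstream. The tables gave Hist2h2aa2 485 and 530 counts and Hist2h2aa1 0 in each library, so the level cannot be assigned to Hist2h2aa2 alone. All 25-mers of Hist2h2aa2 also occur in annotated genes outside the histone set. Gm20634, named above, overlaps 529 bases of Hist2h2aa1 on the same strand and was at 3.02 and 0.12 TPM. The antisense gene Gm20632 overlaps 528 bases of Hist2h2aa2 and was at 0.55 and 0.39 TPM. Whether reads of such genes entered the level was not tested. Exons of 17 H2A genes overlap annotated miRNA genes on the opposite strand, which were not analysed here.

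H2B, the partner of H2A in the dimer, was summed at 200 and 261 TPM. This is 2.44 and 3.09 times the sum of H2A in replicates 1 and 2. Hist1h2bh, Hist1h2bm and Hist2h2bb, which have no entry, are also H2B genes and are not in this sum. Whether their reads were given to other copies was not tested. The highest gene was Hist1h2bn (chr13:21754123-21754503, plus strand), at 45.8 and 57.3 TPM. Below it lay 5 genes at similar levels, Hist1h2bg (28.7 and 36.6 TPM), Hist1h2bf (27.0 and 37.4 TPM), Hist1h2bl, Hist1h2bk and Hist1h2bb, with means of 26.2 to 32.6 TPM and overlapping ranges of neighbours. These 6 genes held most of the class, and no other H2B gene had a mean above that of Hist1h2bc, at 5.13 and 9.68 TPM. Hist1h2bj was at 3.93 and 6.97 TPM, Hist1h2br at 2.85 and 3.17 TPM, Hist1h2bp at 2.66 and 0.99 TPM, and Hist1h2be at 0.99 and 1.47 TPM. Hist1h2ba, a testis histone gene, had 0 counts in both libraries.

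H1, the linker histone that binds DNA at the edge of the nucleosome, was summed at 185 and 240 TPM. Its genes encode 6 different proteins. Hist1h1e (chr13:23620629-23622558, minus strand) was at 93.7 and 132 TPM and held 50.6% and 54.9% of H1, ranking 10 among nuclear protein-coding genes. Hist1h1b followed at 43.4 and 54.8 TPM and Hist1h1a at 19.0 and 20.7 TPM. The ranges of these 3 genes did not overlap. Hist1h1d was at 16.1 and 17.9 TPM and Hist1h1c at 12.9 and 14.8 TPM. Hist1h1t, the H1 gene of male germ cells, had 0 and 5 counts. The 2 other genes known from germ cells, Hist1h2aa and Hist1h2ba, had none, for which 3 counts set an upper limit of 0.0893 and 0.116 TPM for Hist1h2aa and 0.0915 and 0.119 TPM for Hist1h2ba; these limits cover counting error only.

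By class, the shares of summed histone TPM were 28.4% ± 2.26 for H4, 22.6% ± 2.67 for H3, 21.4% ± 0.790 for H2B, 19.7% ± 0.622 for H1 and 7.83% ± 1.00 for H2A (SD, n = 2). H2A was lowest in both libraries by more than the spread between them. The order of H3, H2B and H1 was not the same in the libraries, since H2B exceeded H3 in replicate 2 only. The mean of the 4 core class sums was 1.05 and 0.989 times the H1 sum. In expected counts, which are not per length, H1 held the most, 16044 and 16061 counts; the median length of its models was 743.5 bases, against 483.5 over all 64 genes. The H1 counts summed to whole numbers, within 0.01 counts, although those of Hist1h1c, Hist1h1d and Hist1h1e were not whole. The sums of H2A, of H2B, of H3, of H4 and of all 64 genes were not whole in either library.

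**Figure D2:**
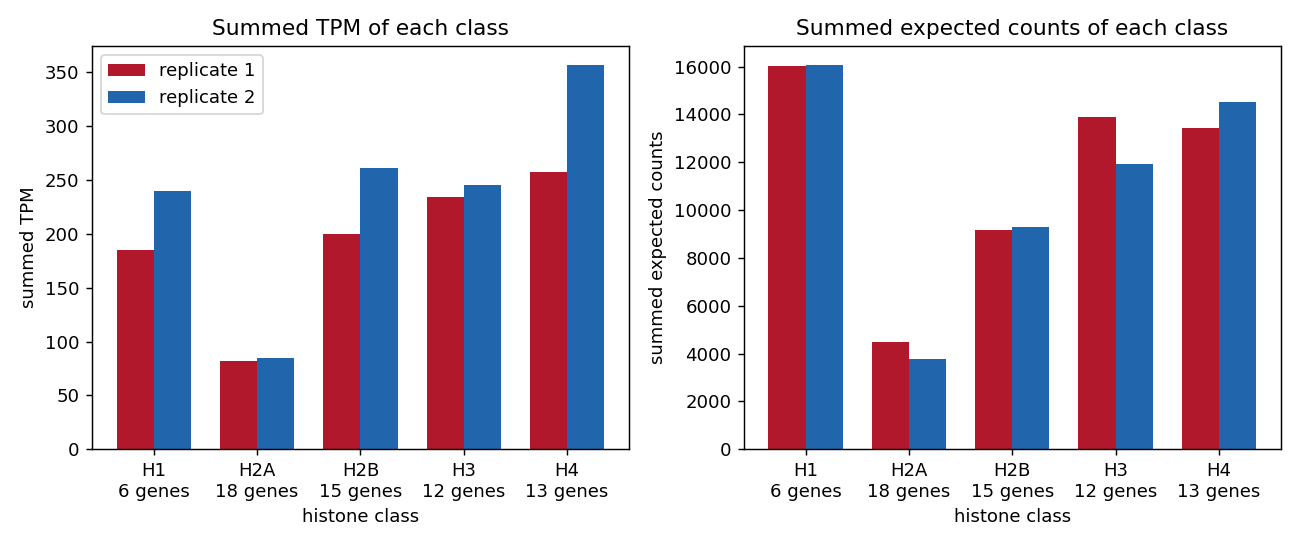
Summed TPM (left) and summed expected counts (right) of each histone class, red for replicate 1 and blue for replicate 2, with the number of genes under each class. H4 leads in TPM, H1 leads in counts, and H2A is lowest in both panels.

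By cluster, the 52 genes of Hist1 on chromosome 13 held 84.8% ± 0.872 of summed histone TPM. They form 2 blocks, 1 of 22 genes (chr13:21715763-22043676) with 25.3% and 24.6% of all histone TPM and 1 of 30 genes (chr13:23531050-23934851) with 58.9% and 60.9%. The second block holds Hist1h4d and Hist1h1e. The 9 genes of Hist2 on chromosome 3 held 13.8% ± 0.744, of which H3 made up 100 and 105 TPM. The remaining Hist2 genes Hist2h2ac (4.28 and 5.42 TPM), Hist2h2be (1.21 and 1.29 TPM) and Hist2h2ab (0.20 and 0.25 TPM) were low. Hist3 on chromosome 11 held 1.13% ± 0.106, from Hist3h2ba at 6.92 and 7.32 TPM and Hist3h2a at 4.58 and 5.16 TPM. Hist4h4 made up the remaining 0.224% ± 0.0221. Its TPM rests on a deposited model of 2879 bases, against a RefSeq gene length of 439 bases.

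H2A and H2B genes that face away from each other share the DNA between their starts, and 12 such pairs were found with starts 164 to 281 bases apart by RefSeq (median 210.5). Levels within a pair were often far apart. The H2B gene was higher in both libraries in 8 pairs, the H2A gene in 3, and both genes were at 0 in the pair of Hist1h2ba and Hist1h2aa. In expected counts, 2 of the 3 pairs led by H2A turned. Hist1h2br had 422 and 392 counts and Hist1h2ap 363 and 207, with main models of 1256 and 482 bases. Hist2h2be had 397 and 330 counts and Hist2h2ac 217 and 213, with models of 2620 and 520 bases. The third, of Hist1h2bq and Hist1h2ao, was led by H2A on both scales. Hist1h2bg was at 28.7 and 36.6 TPM, against 0.24 and 1.76 TPM for its partner Hist1h2ae. Hist1h2bf was at 27.0 and 37.4 TPM, and its partner Hist1h2ad was listed at 0 in both. The pair of Hist1h2bq and Hist1h2ao had 0.28 and 0 TPM for the H2B gene and 14.4 and 21.5 TPM for the H2A gene. Genes of such pairs share sequence with copies elsewhere: the posterior SD was 38.2% of the posterior mean in replicate 1 for Hist1h2ae, and annotated Hist1h2bq transcripts share 98.6% of their 25-mers with Hist1h2br. The part of this sharing in the differences was not tested.

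**Figure D3:**
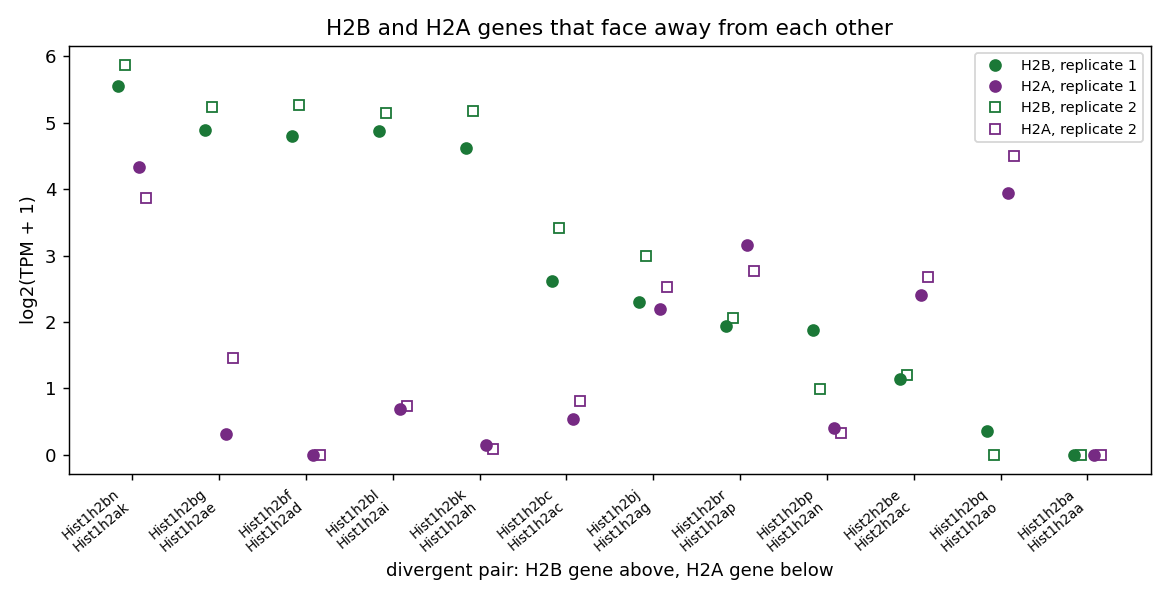
Level as log2(TPM + 1) of the H2B gene (green) and the H2A gene (purple) of each of the 12 divergent pairs, filled circles for replicate 1 and open squares for replicate 2. The 5 pairs on the left have an H2B gene above 20 TPM, and in 4 of them the H2A partner lies under 2 TPM in both libraries.

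The DNA between the starts is printed for the highest pair and for the pair with the strongest lead of H2A, and the 150 bases before the start for the highest H4 and H1 genes (RefSeq, GRCm38.p6, 5′ to 3′ on the strand named). Capitals mark the motifs searched for, on either strand. The first was the TATA box, as TATAAA. The second was the box bound by the factor NF-Y, as CCAAT. The octamer bound by POU factors was searched as ATTTGCAT. The element known from H1 promoters was searched as AAACACA. The last, as GTCCG, is a stretch of the H4 element bound by the product of Hinfp. The motifs overlap nowhere in these 4 sequences.
Hist1h2bn and Hist1h2ak, chr13:21753913-21754075, plus strand: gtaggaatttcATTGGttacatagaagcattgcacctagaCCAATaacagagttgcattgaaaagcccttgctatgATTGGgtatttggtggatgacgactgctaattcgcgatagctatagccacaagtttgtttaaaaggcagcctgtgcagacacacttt
Hist1h2ao and Hist1h2bq, chr13:21810200-21810366, plus strand: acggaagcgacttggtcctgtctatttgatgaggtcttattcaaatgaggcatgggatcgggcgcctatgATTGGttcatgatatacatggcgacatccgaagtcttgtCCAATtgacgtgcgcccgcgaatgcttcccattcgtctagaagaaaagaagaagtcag
Hist1h4d, chr13:23581418-23581567, plus strand: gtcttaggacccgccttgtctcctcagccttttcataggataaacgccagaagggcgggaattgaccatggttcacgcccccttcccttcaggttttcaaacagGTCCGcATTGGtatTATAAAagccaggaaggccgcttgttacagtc
Hist1h1e, chr13:23622559-23622708, minus strand: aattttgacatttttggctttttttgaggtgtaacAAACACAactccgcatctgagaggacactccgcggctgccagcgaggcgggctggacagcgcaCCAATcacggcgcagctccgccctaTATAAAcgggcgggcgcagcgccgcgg
Both divergent regions hold the NF-Y box on each strand. The H4 region holds the H4 stretch, the NF-Y box and the TATA box close together before the start, and the H1 region holds the H1 element, the NF-Y box and the TATA box in that order. Promoters of 59 histone genes, from 250 bases before to 50 bases after the RefSeq start, were searched in the same way. CCAAT was present in all promoters of H1 (6), H2A (18), H2B (13) and H3 (10) but in 3 of 12 H4 promoters, against 37.9% of 27025 promoters in all. GTCCG was present in 12 of 12 H4 promoters, 0 of 6 H1 and 1 of 10 H3 promoters, 8 of 18 of H2A and 4 of 13 of H2B, against 23.5% of all promoters. AAACACA was present in 5 of 6 H1 promoters and in 8 of the 59, against 7.14% of all. ATTTGCAT was found in 7 H2A and 4 H2B promoters and in no other class, against 1.75% of all. TATAAA was present in 35 of the 59, against 14.2% of all. The search did not ask where in the promoter a match lay. For Hist1h2bn and Hist1h2ak, both counted, no match lies within the printed DNA between their starts. By level, CCAAT was present in 38 of 46 promoters of genes with a mean of 1 TPM or more and in 12 of 13 of genes under it. TATAAA was present in 25 of the 46 and in 10 of the 13. Promoters of divergent partners overlap, so these counts are not independent, and a match of letters is not a binding site.

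The annotated end of a transcript affected the level of some genes. Of the 44 genes with a stem-loop, 27 have a deposited model of the same length as the M21 transcript, and in 10 of these the model runs over 100 bases past the stem-loop. TPM divides by the length of the whole model. In an alternative added after seeing the data, the length was taken to 5 bases past the stem-loop, which assumes that all reads of the gene came from the part before that point. Hist2h4, whose model is 1630 bases long, then moved to 137 and 207 TPM, next to Hist1h4d at 148 and 217 TPM. Hist3h2a moved to 24.7 and 28.1 TPM, against 4.58 and 5.16 TPM as deposited, and Hist1h1c to 31.1 and 35.8 TPM. Hist2h4 had 4370 and 5102 counts and Hist1h4d 5033 and 5685 counts, and their model lengths were 1630 and 393 bases. The share of H4 became 34.9% in place of 28.4%, and the share of the Hist2 cluster 24.1% in place of 13.8%. Where in the transcript the reads lay is not in the tables, so which length holds was not tested.

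**Figure D4:**
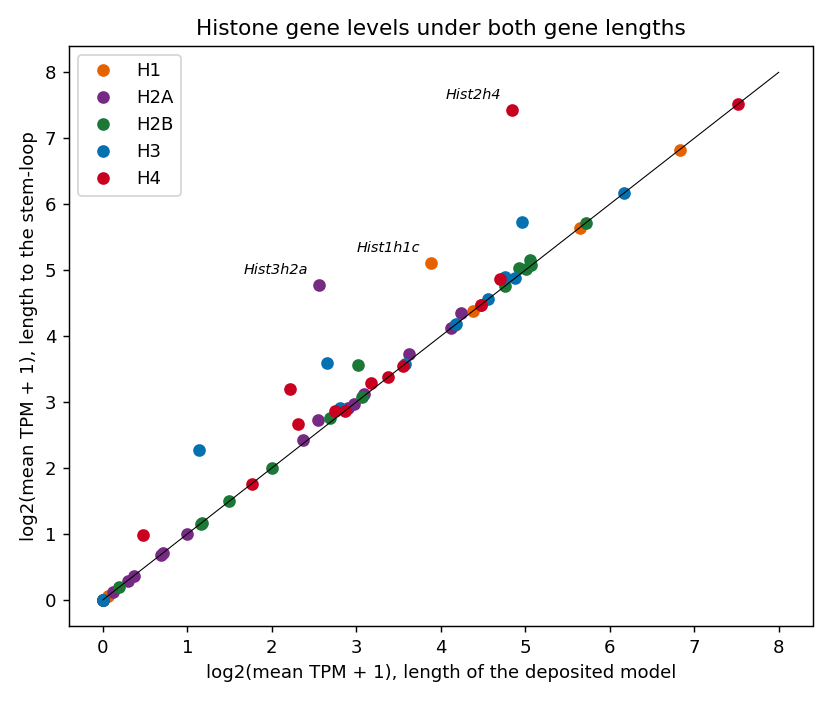
Mean level over both libraries as log2(TPM + 1), with the length of the deposited model on the x axis and the length to the stem-loop on the y axis, coloured by class. The line marks equal values. Hist2h4, Hist3h2a and Hist1h1c lie furthest above it among genes of at least 20 TPM on the y axis.

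Several H2B genes also have annotated transcripts that are spliced or run far past the stop codon, as are known for H2B genes that are expressed outside S phase. Of Hist1h2bp, the 469-base model with the stem-loop held 84.8% of the gene's TPM in replicate 1 and 24.3% in replicate 2, and a spliced 621-base model without it held the rest. The counts behind these shares were low, 99.5 and 8.23 for the first model and 26.0 and 37.5 for the second. Of Hist1h2be, the longest model of 2433 bases held 46.8% and 84.5%, a model of 2408 bases 13.8% and 0%, and the shortest, for which M21 gives no coding sequence, 39.4% and 15.6%. The balance of models differed between the libraries for both genes. Of Hist1h2br, the 1256-base model held 100% and 91.8%. Hist1h2bq had 74.0 counts in replicate 1 and 0 in replicate 2, all on its 2121-base model, whose posterior mean share was 89.4% and 53.3%. None of the M21 models of Hist1h2bq or Hist1h2br holds a stem-loop. The 2121-base model of Hist1h2bq is 1254 bases long in M21, so its deposited form was not searched. The M21 model of Hist1h2be overlaps that of Hist1h1e on the same strand by 450 bases. The counts rest on a deposited Hist1h1e model of 748 bases, against 1930 bases in M21. The overlap in M21 therefore does not show that the counted models share reads.

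All 64 genes share at least 1 25-mer with another histone gene, and the median gene shares 57.6% of its 25-mers. The 25-mers are those of M21 transcripts, whereas counts rest on the deposited models, of which 48 of 69 have the same length. Hist1h2ac, for example, has a model of 476 bases, against 2482 bases in M21. Annotated genes outside the 64 also hold 89.4% of the 25-mers of Hist1h2ai and 83.5% of those of Hist1h2bl. They hold none of those of Hist1h4f. Expected counts were not whole, by more than 0.01 counts, for 52 genes. Even so, the posterior SD was under 10% of the posterior mean count in both libraries for 45 genes, and 0 in both for 7, of which Hist1h1t and Hist1h2aa had a posterior mean count of 0 in 1 or both libraries. Among these 45 genes 43 were at 1 TPM or more in both libraries. Genes joined by more than 50% of the 25-mers of the gene with fewer formed groups of 12 H2A, 12 H2B, 10 H4 and 9 H3 genes of Hist1, 3 H3 genes and 2 H2A genes of Hist2, and 16 genes on their own, Hist1h4d among these. The H2B group was at 192 and 253 TPM and the H2A group at 63.4 and 60.6 TPM, so H2B also exceeded H2A when copies were summed.

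**Figure D5:**
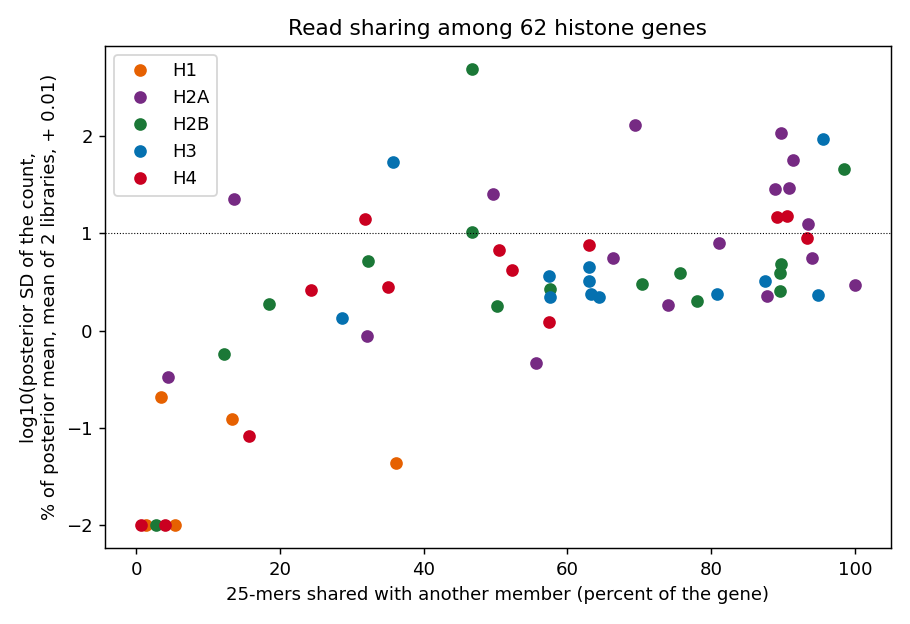
Posterior SD of the expected count, as log10 of its percent of the posterior mean count plus 0.01 (mean of both libraries), against the percent of a gene's 25-mers that other histone genes hold, for the 62 genes with a posterior mean above 0 in both libraries. The 25-mers are those of M21 transcripts, which for some genes differ in length from the deposited model. Points are coloured by class and the dotted line marks 10%. Hist4h4, Hist2h4, Hist2h2be and Hist1h1a, with few shared 25-mers, lie at the bottom, and several H2A genes with over 80% shared lie above the line.

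The libraries were compared gene by gene, as replicate 1 over replicate 2. On log2(TPM + 1), centred on the median of the 9878 genes with a mean of at least 20 expected counts, 2 of the 54 histone genes among them were over 2-fold apart between replicate 1 and replicate 2, against 0.628% of all 9878 genes. Both were higher in replicate 2, as were 0.375% of all genes. They were Hist2h3c1 at -1.72, described above, and Hist1h2ae at -1.11, with 10.4 counts in replicate 1 and 58.2 in replicate 2. This comparison with all genes depended on the scale. With a pseudocount of 0.1, 4 of the 54 were apart, against 10.4% of all genes, and with edgeR TMM or DESeq2 size factors on counts 4 were apart, against 18.2%, so that the share of histone genes was then below that of all genes. By any amount, 39 of the 54 histone genes were higher in replicate 2, against 50% of all these genes and 60.6% of the 3336 with a mean of at least 1 TPM, where 37 of the 51 histone genes of that level were. The median log2 ratio was -0.15 over the 54 histone genes and, by the centring, 0 over all 9878 genes. Over the 3336 genes with a mean of at least 1 TPM, a limit not set for the 54, it was -0.07. The erythroid markers had a median of -0.21, those of granulocytes and monocytes -0.34, of macrophages -0.21 and of megakaryocytes -0.19. B lymphoid markers were at 0.05 and stem cell markers at 0.09. A like tilt was thus present in some marker lists and not in others, and its part in the histone values was not tested. The order of the histone genes was coarse, since in 7 of the 63 steps from a gene to the next lower one the ranges did not overlap.

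Most replacement histones are made throughout the cell cycle from polyadenylated mRNA. Of 11 genes for replacement histones, 8 were at 1 TPM or more in both libraries, against the 12.6% of all nuclear protein-coding genes. H3f3a was highest at 47.5 and 63.4 TPM, followed by H2afz (29.6 and 26.4 TPM), H3f3b (16.9 and 19.8 TPM) and H2afx (11.8 and 12.6 TPM). H3f3a and H3f3b encode the same H3.3 protein. H2afy2 was listed at 0 in both, and H1fx, a linker histone gene, was at 0.01 and 0.02 TPM. The replication-dependent genes summed to 958 and 1188 TPM, against 124 and 142 TPM for these 11 genes.

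Of 16 genes for stem-loop processing and decay, 6 were at 1 TPM or more in both, against 12.6% of all nuclear protein-coding genes. Slbp, whose product binds the stem-loop, was by far the highest at 12.1 and 10.6 TPM, followed by Srrt (1.79 and 2.22 TPM), Ncbp1 (1.12 and 1.80 TPM) and Eri1 (1.45 and 1.34 TPM), which encodes an exonuclease that trims histone mRNA. Lsm11, of the U7 particle that cuts histone pre-mRNA, was at 0.01 and 0.02 TPM, and Zfp473, which encodes a protein of the same reaction, at 0.11 and 0.03 TPM. Of 11 genes for histone transcription, 8 passed, against the same 12.6%. The highest were the cyclin genes Ccne2 (3.53 and 4.85 TPM) and Ccne1 (3.52 and 3.63 TPM), Nfya, which encodes a subunit of the CCAAT-binding NF-Y (3.37 and 3.70 TPM), and Cdk2 (2.25 and 2.41 TPM). Npat, the coactivator of histone genes, was at 0.83 and 0.95 TPM and Hinfp at 0.48 and 0.66 TPM. The threshold of 1 TPM is strict here too. With the total taken over nuclear protein-coding genes, Npat was at 35.8 and 35.2 and Hinfp at 20.7 and 24.4. Lsm11 stayed under 1 on that scale, at 0.431 and 0.740. There, 44.6% of all nuclear protein-coding genes reached 1 in both libraries. Of 20 genes for histone chaperones and import, 18 passed 1 TPM, against 12.6% of all. The highest were Npm1 (9.55 and 11.4 TPM), Rbbp4 (6.43 and 4.91 TPM), Asf1b (4.65 and 5.22 TPM) and Nap1l1 (3.63 and 4 TPM). The lowest were Chaf1a (0.55 and 0.89 TPM), a subunit of the assembly factor CAF-1, and Daxx (0.57 and 0.46 TPM).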

How the data were processed

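Each of 2 total RNA libraries of CFU-Ery cells has 1 gene and 1 transcript table, made on mm10 with GENCODE M4, as a deposited text on the files says. Aligner, quantifier and strand setting: not given in the sources used here. Per the file headers, the authors provide expected counts, in which a read that matches several genes is divided, so fractions occur. TPM and posterior mean TPM, as deposited, add up to the same total in each library and include mitochondrial rRNA. FPKM was deposited too and was left out. The isoform percent the authors give splits the TPM of a gene among its transcripts.

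Gene names, coordinates (1-based) and transcript sequences came from GENCODE M21, promoters from RefSeq on GRCm38.p6, an assembly of mm10 coordinates. All 64 genes matched a RefSeq gene and 59 a promoter. Stem-loops were searched after the stop codon with a fixed pattern of 16 bases. Ratios of replicate 1 over replicate 2 used log2(TPM + 1), which understates differences of low genes, for genes with a mean of at least 20 expected counts, centred on their median, a shift of -0.05. No statistical test was run, since there is 1 group. The ratio call was tried on simulated counts without shared reads, with changes placed only in genes of at least 5 TPM. It was thus not tried for genes as low as Hist2h3c1 and Hist1h2ae. Values in each library are given for the 3 highest and the lowest genes of each class, genes over 2-fold apart, germ-line genes, genes of Hist2 to Hist4 and genes split between transcripts, and for the 4 highest and 2 lowest genes of each pathway list; the other genes were named to account for all 64. The members and the lists were chosen with earlier results of these data known. For size factors, rounded expected counts were passed to edgeR 4.0.16 and DESeq2 1.42.0 (R 4.3.3). Python 3.11.15, numpy 2.4.6, pandas 2.3.3 and matplotlib 3.10.9 were used.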

Additional observations from a re-analysis of the deposited data

How the results depend on the processing

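The count of genes at 1 TPM or more in both libraries (47) stayed within 1.5 times under every alternative, from 37 at 5 TPM to 56 with rescaled TPM; 43 remained among genes with a posterior SD under 10%. As a share of expected counts, which are not per length, histone genes held 1.28% of nuclear protein-coding genes. Class shares in expected counts were 28.5% for H1, 16.4% for H2B and 24.8% for H4, so that H1 and not H4 was the highest class, and cluster shares 74.4% for Hist1, 21.5% for Hist2, 2.74% for Hist3 and 1.36% for Hist4. Per whole model length in place of effective length, the share was 22.2% for H1 and 20.4% for H2B, the reverse of their order in TPM, and the sums were 69.5 TPM for H2A, 187 for H2B and 210.3 for H3. Rescaled TPM gave sums of 8426 for H1, 3331 for H2A, 9148 for H2B, 9601 for H3 and 12148 for H4, by construction. With the length to the stem-loop, chosen after seeing the data, sums were 108 TPM for H2A, 274 for H3 and 462 for H4, the share was 17.6% for H1, 18.2% for H2B and 34.9% for H4, and clusters held 72.9% (Hist1), 24.1% (Hist2), 2.86% (Hist3) and 0.183% (Hist4). Hist4h4 was not given a new length, as its deposited and M21 models differ. The genes over 2-fold apart (2) became 4 with a pseudocount of 0.1, with edgeR TMM and with DESeq2 size factors, when 10.4%, 18.2% and 18.2% of all genes were apart, and 1 with posterior mean TPM, which left out Hist2h3c1; the 2 added were Hist1h2bp and Hist1h2bq. The median log2 ratio kept its sign, from -0.08 with edgeR TMM to -0.19 without centring. Leaving out a replicate gave 48 to 50 genes at 1 TPM or more. Of the 10 highest genes, 8 to 10 stayed among the 10 highest. No paired analysis was possible because there is only 1 group. With 2 libraries, an SD is itself imprecise, and low genes with shared reads have no reliable level.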

Other observations

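Among histone entries that the annotation calls pseudogenes, Hist3h2bb-ps, next to Hist3h2a on chromosome 11, had 68.5 and 60.8 expected counts in replicates 1 and 2, or 1.57 and 1.81 TPM, a mean above those of 17 of the 64 protein-coding genes. Hist1h2aj and Hist1h2al had 0 counts in both libraries.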
